A study of Mus musculus with 4 samples.

Results

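The CXC chemokine genes examined here were Cxcl1, Cxcl2, Cxcl3, Cxcl5, Ppbp, Pf4, Cxcl12, Cxcl14 and Cxcl16, which are 9 of the 22691 genes in the expression table. They were selected on the mean FPKM that the authors deposited for each group, a fragment count scaled to transcript length and library size, so the FPKM differences of these genes are described and not tested. RNA was sequenced from mouse embryonic fibroblasts of female E13.5 fetuses, with 2 libraries homozygous for the MD1 allele of Smchd1 (MD1) and 2 libraries with wild-type Smchd1 (WT). SmcHD1 is a chromatin protein that helps to keep the inactive X chromosome silent, and MD1 is a nonsense allele from a chemical mutagenesis screen. The cells of both groups were heterozygous for Xist deltaA, which in this cross leaves the paternal X as the inactive one. The mothers were C57BL6/J and the fathers were F1 hybrids of JF1 and C57BL6/J. Each fetus could therefore inherit either strain's allele of an autosomal gene from its father, and this cannot be told apart from the Smchd1 genotype at the chemokine genes. Smchd1 itself had 1.94 FPKM in MD1 and 14.7 FPKM in WT, or 13.1% of the WT level, and Xist had 26.9 FPKM in MD1 and 22.04 FPKM in WT.

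CXC chemokines are small secreted proteins that attract leukocytes through G protein-coupled receptors. Cxcl1, Cxcl2, Cxcl3, Cxcl5 and Ppbp carry a Glu-Leu-Arg motif before the CXC cysteines and act on Cxcr2 of neutrophils. Fibroblasts transcribe several of them after stimulation by IL-1, TNF or IL-17, through NF-kappaB and C/EBP factors, and AU-rich elements in their mRNAs make the transcripts short-lived. Pf4 and Ppbp are best known as alpha-granule proteins of platelets. Cxcl12 is made constitutively by stromal cells and signals through Cxcr4, Cxcl14 is expressed in many epithelia and stromal cells, and Cxcl16 is a membrane-bound ligand of Cxcr6 that ADAM proteases shed.

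The labelled cell type was checked against 12 fibroblast marker genes, all of which were in the table and passed a mean FPKM of 1. Vim, the most abundant, had 2802 FPKM in MD1 and 2790 FPKM in WT, and Col1a1 had 1081 FPKM in MD1 and 1688 FPKM in WT. In bulk RNA, fewer cells of a type and less RNA per cell cannot be told apart. The FPKM columns hold 1 mean per group and no value per library, so the spread of these values is unknown and a single library could set a difference.

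All 6 genes of the chromosome 5 cluster had higher mean FPKM in MD1, while the genes elsewhere went both ways. Their summed level was 263.3 FPKM in MD1 and 11.01 FPKM in WT, a ratio of 23.9. The summed level of Cxcl12, Cxcl14 and Cxcl16 was 239.8 FPKM in MD1 and 330.2 FPKM in WT, a ratio of 0.726. The median log2 ratio of (FPKM + 1), MD1 over WT, was 3.41 for the 6 cluster genes and -0.43 for the 3 genes elsewhere, a difference of 3.84, beside 0.0058 over 11399 genes (those averaging at least 1 FPKM over the groups, with neither group at 0). All 9 members passed that filter, but Cxcl1, Cxcl2, Cxcl3 and Pf4 passed only through their MD1 values and so had to differ.

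**Figure D1:**
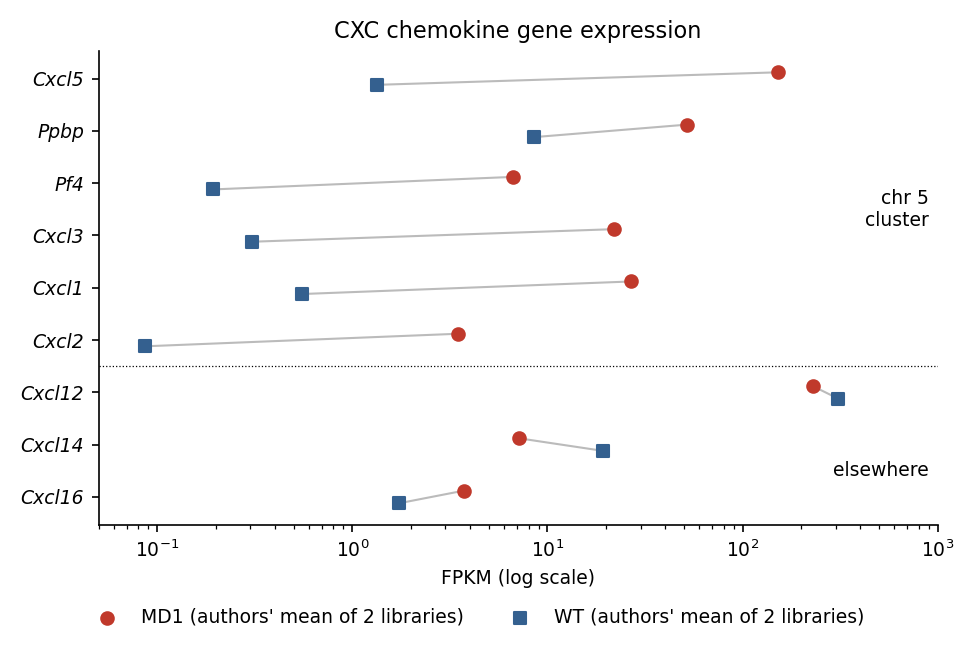
Mean FPKM of each CXC chemokine gene (log axis) in MD1 (circles) and WT (squares), each point being the authors' mean of 2 libraries, with no spread given. Every cluster gene lies further right in MD1, Cxcl5 by the most (152.1 against 1.33 FPKM), and Cxcl12 and Cxcl14 lie further left in MD1.

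Among the neutrophil-attracting genes, Cxcl5 had the highest MD1 level. Cxcl5 (chromosome 5, 91188324 to 91190651, mm9) had 152.1 FPKM in MD1 and 1.33 FPKM in WT, a log2 ratio of 6.04 and the fourth highest of the 11399 genes. The genes ranked above it include the ribosomal protein genes Rpl10 and Rpl24. These had 210.7 and 273.3 FPKM in MD1, against 1.23 and 2.79 FPKM in WT. Whether such low WT values are failed estimates was not tested, so the rank is a description only. Cxcl1 (91320271 to 91322141) had 26.9 FPKM in MD1 and 0.554 FPKM in WT, a log2 ratio of 4.17. Cxcl3 (91215127 to 91217119) was similar, at 21.9 FPKM in MD1 and 0.307 FPKM in WT, a log2 ratio of 4.13. Cxcl2 (91332925 to 91334964) was the lowest of the 6 in both groups, at 3.48 FPKM in MD1 and 0.0866 FPKM in WT, with a log2 ratio of 2.04. The pseudocount of 1 shrinks the ratio of all genes with a low WT level. With a pseudocount of 0.1 the log2 ratios were 4.26 for Cxcl2, 4.53 for Pf4, 5.37 for Cxcl1, 5.75 for Cxcl3 and 6.73 for Cxcl5, so that Cxcl3 stood above Cxcl1.

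The platelet chemokine genes differed in their WT level. Ppbp (91197544 to 91199086), which encodes the precursor of neutrophil-activating peptide, had 52.2 FPKM in MD1 and 8.54 FPKM in WT, a log2 ratio of 2.48. It was the most abundant cluster gene in WT, where it made up 77.6% of the summed FPKM of the 6, while in MD1 it made up 19.8% and Cxcl5 57.8%. Pf4 (91201461 to 91202409), which encodes platelet factor 4, had 6.68 FPKM in MD1 and 0.193 FPKM in WT, a log2 ratio of 2.69. Of 12 megakaryocyte and platelet markers, 9 had a mean FPKM under 1, Gp9 was listed at 0 in both groups, and Itga2b had 0.290 FPKM in MD1 and 0.301 FPKM in WT. The summed level of these 12 genes was 12.9 FPKM in MD1 and 9.92 FPKM in WT, carried by Itgb3, Selp and Gp1bb.

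The 3 genes outside chromosome 5 had no common direction. Cxcl12 (chromosome 6, 117118553 to 117131386) was the most abundant CXC chemokine gene in both groups, at 228.8 FPKM in MD1 and 309.2 FPKM in WT, a log2 ratio of -0.43. Cxcl14 (chromosome 13, 56390006 to 56397912) had 7.18 FPKM in MD1 and 19.3 FPKM in WT, a log2 ratio of -1.31. Cxcl16 (chromosome 11, 70267736 to 70273486) had 3.73 FPKM in MD1 and 1.74 FPKM in WT, a log2 ratio of 0.79. With a pseudocount of 0.1 the Cxcl16 value was 1.06, past the 2-fold line that it misses here. Cxcl12 made up 45.5% of the summed FPKM of the 9 genes in MD1 and 90.6% in WT, and Cxcl5 made up 30.2% in MD1 and 0.390% in WT.

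At a 2-fold threshold on the log2(FPKM + 1) scale, all 6 cluster genes were higher in MD1, beside 1.39% of the 11399 genes, and Cxcl14 was lower, beside 2.81% of them. These shares are given as background only, since the members were selected on the same contrast. At their WT levels Cxcl2, Cxcl3 and Pf4 could not pass the FPKM filter without exceeding 2-fold. Every later 2-fold count uses the same scale, on which a plain ratio just past 2 can fall short. The other 6 CXC ligand genes of the table were little expressed. Cxcl10, an interferon-induced ligand of Cxcr3, had 1.68 FPKM in MD1 and 0.438 FPKM in WT, and Cxcl9, Cxcl11, Cxcl13, Cxcl15 and Cxcl17 had at most 0.0257 FPKM in MD1 and at most 0.176 FPKM in WT.

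The cluster spans 146.6 kb and all 6 genes are on the plus strand. Cxcl5, Ppbp, Pf4 and Cxcl3 start within 26.8 kb of each other, and Cxcl1 and Cxcl2 start 12.7 kb apart at the other end. Cxcl15, a lung-type CXC ligand gene that lies between Cxcl3 and Cxcl1 (91223560 to 91232093), had 0.0128 FPKM in MD1 and 0.176 FPKM in WT, both too low for a ratio. Of 13 other genes that start within 500 kb of the cluster, 4 passed the FPKM filter and none was 2-fold apart. Rassf6, the nearest of these on the Cxcl5 side, had 4.56 FPKM in MD1 and 3.61 FPKM in WT, and Mthfd2l, next to Cxcl2, had 4.47 FPKM in MD1 and 3.94 FPKM in WT. The epidermal growth factor family genes Ereg and Areg had 12.1 and 3.59 FPKM in MD1, against 14.2 and 2.60 FPKM in WT. The log2 ratios of the 4 genes ranged from -0.22 to 0.35. The liver genes Alb, Afp and Afm, with the noncoding or predicted genes Gm9958, 5830473C10Rik and Gm19619 and the growth factor genes Epgn and Btc, were all at or below 0.323 FPKM in each group.

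**Figure D2:**
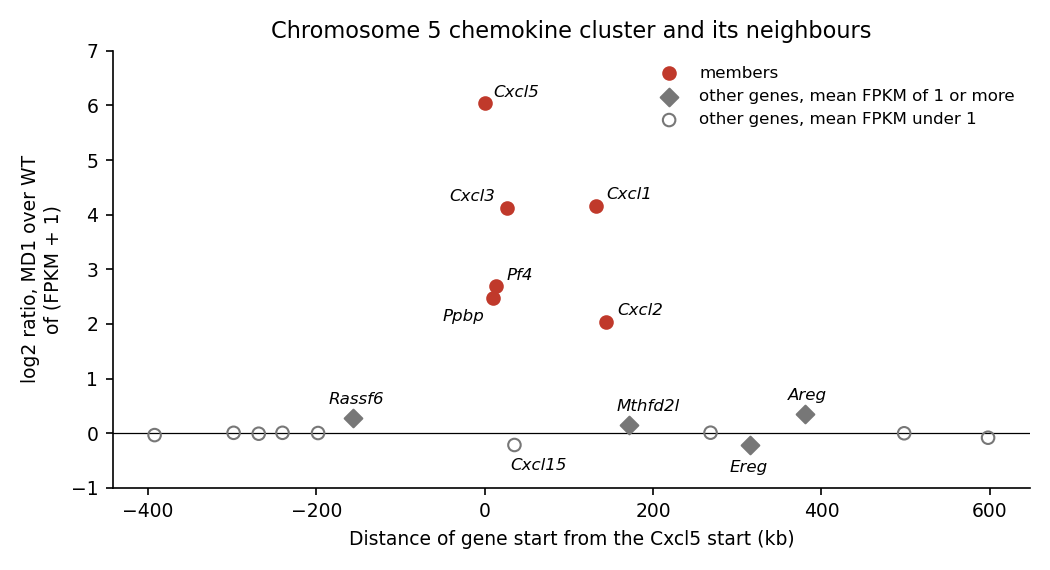
Log2 ratio of (FPKM + 1), MD1 over WT, against the distance of each gene's start from that of Cxcl5 in kb, for the 6 members (filled circles), other genes that passed the FPKM filter (diamonds) and genes under it (open circles). The members sit between 2.04 and 6.04 and the 4 diamonds between -0.22 and 0.35.

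Promoter sequence separated the genes of the Cxcl1, Cxcl2 and Cxcl3 subgroup from the others. The RefSeq promoter table (GRCm38.p6) held 7 of the 9 members, all but Cxcl5 and Cxcl16. The last 120 bases before the annotated start are given on the plus strand, 5′ to 3′, for the 5 cluster genes found and for Cxcl12, with matches to the kappaB consensus, the binding sequence of NF-kappaB, in capitals. They show that 3 of the genes carry a match and that Ppbp, Pf4 and Cxcl12 carry none.
Cxcl1 (chr5:90891125-90891244): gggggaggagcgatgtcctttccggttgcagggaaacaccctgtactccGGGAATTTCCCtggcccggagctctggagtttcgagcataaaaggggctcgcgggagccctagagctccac
Cxcl2 (chr5:90903779-90903898): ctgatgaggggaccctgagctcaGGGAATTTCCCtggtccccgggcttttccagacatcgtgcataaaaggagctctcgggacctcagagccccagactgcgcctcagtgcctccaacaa
Cxcl3 (chr5:90785981-90786100): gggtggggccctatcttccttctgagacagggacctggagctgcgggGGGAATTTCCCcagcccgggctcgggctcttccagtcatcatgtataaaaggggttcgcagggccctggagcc
Ppbp (chr5:90768398-90768517): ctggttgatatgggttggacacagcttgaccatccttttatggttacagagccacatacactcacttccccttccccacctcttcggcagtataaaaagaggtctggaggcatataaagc
Pf4 (chr5:90772315-90772434): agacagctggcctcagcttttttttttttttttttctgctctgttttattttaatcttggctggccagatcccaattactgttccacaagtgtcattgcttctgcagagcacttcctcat
Cxcl12 (chr6:117168415-117168534): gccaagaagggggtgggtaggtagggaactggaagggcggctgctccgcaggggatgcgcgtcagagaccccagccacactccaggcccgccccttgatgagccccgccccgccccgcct

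The longest run of bases common to the 250 bases before the starts of Cxcl1, Cxcl2 and Cxcl3 was GGGAATTTCCC, 11 bases long. It ended 61 bases before the start of Cxcl1, 87 before that of Cxcl2 and 63 before that of Cxcl3. The run occurred, on either strand, in 14 of the 32851 promoters of the table (0.0426%). It holds overlapping kappaB matches on both strands, and it was found by comparing these 3 genes, which are close paralogs. The kappaB consensus itself matched 7.25% of all promoters and none of Ppbp, Pf4, Cxcl12 and Cxcl14 among the members. A TATA-like ATAAAA began on the plus strand at -34 from the start of Cxcl1, at -57 in Cxcl2 and at -29 in both Cxcl3 and Ppbp. Pf4 had it on the minus strand only, while Cxcl12 and Cxcl14 had none. ATAAAA was present on either strand in 17% of all promoters, and TATAAA, which overlaps it in Cxcl3 and Ppbp, in 12.4%. Ppbp also had a TATAAA at -8. TTGCNNAA, a C/EBP-type sequence, was found in Pf4 alone (9.56% of all promoters), and TGANTCA, an AP-1-type sequence, in Ppbp alone (6.75%). The matches describe letters within 250 bases and not factor binding, which was not measured.

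**Figure D3:**
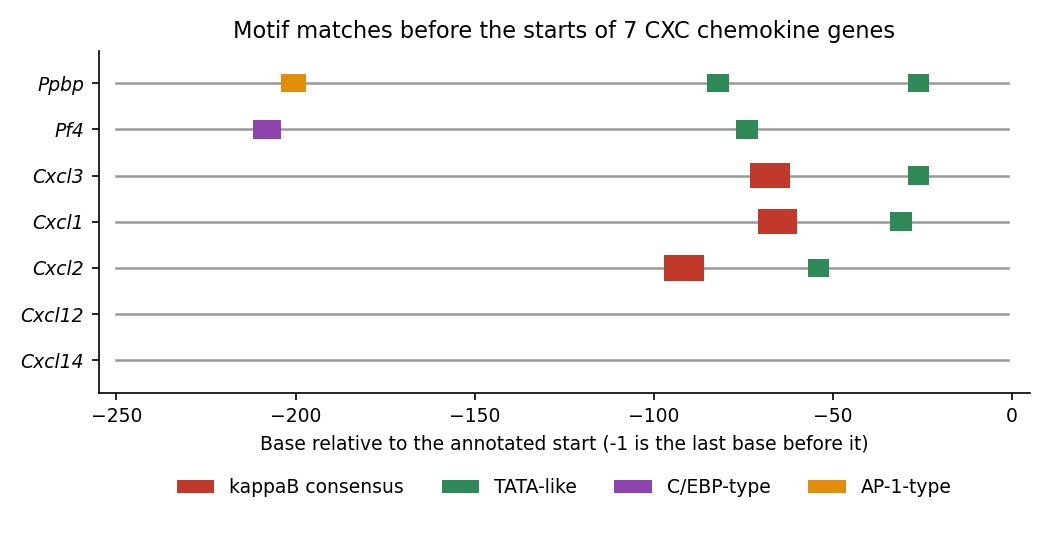
Positions of motif matches on either strand within 250 bases before the annotated starts of the 7 members in the promoter table, with the start at the right end of each line and ATAAAA as the TATA-like match. The kappaB consensus (red) appears in Cxcl1, Cxcl2 and Cxcl3, and no searched motif appears in Cxcl12 or Cxcl14.

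The mRNA ends differed too. ATTTA, the core of AU-rich elements that decay proteins such as tristetraprolin bind, was counted in the 3′ untranslated region of the principal transcript of each gene (GENCODE M21, GRCm38). Cxcl2 had 11 copies (15 per kb), Cxcl1 had 7 (11.8 per kb), Pf4 had 1 in a short region of 123 bases (8.13 per kb), Cxcl3 had 5 (7.75 per kb), Cxcl5 had 5 (4.50 per kb) and Ppbp had 1 (1.52 per kb). Outside the cluster, Cxcl16 had 1.41 copies per kb, Cxcl12 1.08 and Cxcl14 none. The median over 19357 genes was 1.33 per kb, and 0.243% of genes were as dense as Cxcl2 or denser, 0.532% as dense as Cxcl1 and 2.36% as dense as Cxcl3. The densest stretch of 30 bases is shown for the 4 genes with 5 or more copies and for Cxcl12, with ATTTA in capitals.
Cxcl1: gagggtcctATTTATTTAtgtATTTATTTA
Cxcl2: tATTTATTTAtctatgtATTTATTTATTTA
Cxcl3: caagatggcatcttATTTAatgtttATTTA
Cxcl5: agcttcctgctcatctcacaagtgtATTTA
Cxcl12: aagcaaatccgaATTTAaataggacATTTA

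Overlapping copies ran together in Cxcl1 and Cxcl2, while the copies in Cxcl3 and Cxcl12 stood apart, and no stretch of this length in Cxcl5 held more than 1. Cxcl2, the densest, had the lowest level of the 9 in both groups, and a relation of density to FPKM was not tested.

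Reads of close paralogs can be assigned to the wrong gene. Of the 50-base windows in the coding transcripts of Cxcl3, 6.31% also occurred in transcripts of Cxcl2, and 3.28% of those of Cxcl2 occurred in Cxcl3. Part of their FPKM could therefore be shared, and its size was not measured. It need not equal the share of windows, as Cxcl3 had 21.9 FPKM in MD1 and Cxcl2 3.48 FPKM. Cxcl5 shared 0.871% of its windows with genes outside the family, and Cxcl1, Ppbp, Pf4, Cxcl12, Cxcl14 and Cxcl16 shared none with another annotated gene. The read length is not given in the sources used here.

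The signalling receptors of the neutrophil-attracting ligands were scarce in the fibroblasts. Cxcr2, the receptor of the neutrophil-attracting ligands, had 0.00434 FPKM in MD1 and 0.00844 FPKM in WT, and Cxcr1 was listed at 0 in MD1 with 0.0130 FPKM in WT. Of 10 conventional and atypical receptors 2 passed the FPKM filter. Ackr3, a scavenging receptor of Cxcl12, had 9.12 FPKM in MD1 and 27.3 FPKM in WT, a log2 ratio of -1.49. Cxcr4, the signalling receptor of Cxcl12, had 0.945 FPKM in MD1 and 1.07 FPKM in WT. Adam10, which sheds Cxcl16, had 53.4 FPKM in MD1 and 56.4 FPKM in WT.

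Several feedback targets of NF-kappaB were higher in MD1, while no cytokine or pattern receptor, signalling or subunit gene of the pathway was 2-fold apart. Over 10 lists of ligands, receptors, signalling genes, factors and targets, 98 of 127 genes passed the filter, and 15 of these passed 2-fold upward in MD1 (15.3%, beside 1.39% of all genes) and 3 downward (3.06%, beside 2.81%). Their median log2 ratio was 0.23, beside 0.0058 over all genes. These lists were chosen with earlier results known, so the counts are descriptive. Of the 15, Saa3, Lcn2 and Mmp9 were below 1 FPKM in WT and passed the filter only through MD1, as did 44 of the 158 higher genes overall.

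None of 15 cytokine and pattern receptor genes was 2-fold apart, and 12 of them had a ratio above 0, beside 50.8% of all genes. Tlr13, at 0.753 FPKM in WT, passed the filter only through MD1 and so had to be above 0. Tnfrsf1a, the main TNF receptor gene, had 64.6 FPKM in MD1 and 71.5 FPKM in WT, a log2 ratio of -0.14. Il1r1, the IL-1 receptor gene, had 6.30 FPKM in MD1 and 3.82 FPKM in WT, and Il17ra had 8.40 FPKM in MD1 and 5.59 FPKM in WT. None of 22 signalling genes and none of 5 NF-kappaB subunit genes was 2-fold apart either. Nkrf had the highest log2 ratio of the signalling genes, 0.88, at 10.02 FPKM in MD1 and 5.003 FPKM in WT. Tab2, an adaptor of the TAK kinase, had 47.0 FPKM in MD1 and 51.8 FPKM in WT. Rela, the gene of the p65 subunit, had 31.7 FPKM in MD1 and 32.5 FPKM in WT, and Nfkb1 had 20.9 FPKM in MD1 and 15.4 FPKM in WT.

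Of 9 feedback targets of NF-kappaB that passed the filter, 4 exceeded 2-fold in MD1, beside 1.39% of all genes. None was that much lower, beside 2.81%, and the median log2 ratio of the 9 was 0.30. Nfkbia, the gene of the inhibitor IkappaB-alpha, had 31.5 FPKM in MD1 and 13.6 FPKM in WT, and Tnfaip3, the gene of the deubiquitinase A20, had 13.2 FPKM in MD1 and 5.47 FPKM in WT. Nfkbiz, a co-regulator of secondary NF-kappaB targets, had 23.4 FPKM in MD1 and 10.9 FPKM in WT, and Bcl3 had 8.02 FPKM in MD1 and 2.84 FPKM in WT. Tnip1, in contrast, had 10.2 FPKM in MD1 and 14.1 FPKM in WT.

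Of 12 other transcription factor genes 1 was 2-fold lower and none 2-fold higher on the log2(FPKM + 1) scale. Fos had 7.84 FPKM in MD1 and 21.7 FPKM in WT, a log2 ratio of -1.36, while Junb had 70.3 FPKM in MD1 and 69.0 FPKM in WT. Cebpd, a C/EBP factor induced by cytokines, had 21.8 FPKM in MD1 and 10.5 FPKM in WT. Its log2 ratio of 0.99 fell just short of the 2-fold line that the plain ratio passes. Of 10 genes for decay or stabilisation of AU-rich mRNA, Zc3h12a, which encodes the nuclease Regnase-1, was 2-fold higher, at 8.73 FPKM in MD1 and 2.83 FPKM in WT. Zfp36, the gene of tristetraprolin, had 32.9 FPKM in MD1 and 50.7 FPKM in WT, a log2 ratio of -0.61. Mapkapk2, a kinase gene that acts on tristetraprolin, was the most abundant of the list, at 84.4 FPKM in MD1 and 69.7 FPKM in WT.

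Genes that stromal cells induce together with the cluster after IL-1, TNF or IL-17 included several with higher levels in MD1. Of 20 that passed the filter, 10 had more than 2-fold higher levels in MD1 and 1 was lower, with a median log2 ratio of 1.03. The count and median include C3, Saa3, Lcn2 and Mmp9, which passed only through MD1, and at their WT levels Lcn2 and Mmp9 could not pass without exceeding 2-fold. Saa3, an acute-phase gene, had 150.2 FPKM in MD1 and 0.816 FPKM in WT. Ccl2 and Ccl7, monocyte-attracting CC chemokine genes, had 309.7 and 172.0 FPKM in MD1, against 31.4 and 44.97 FPKM in WT. Il6 had 18.6 FPKM in MD1 and 1.40 FPKM in WT, the matrix metalloproteinase gene Mmp10 had 7.91 FPKM in MD1 and 1.01 FPKM in WT, and Lcn2, the gene of lipocalin-2, had 2.68 FPKM in MD1 and 0.0736 FPKM in WT. Ptgs2, the prostaglandin synthase gene and the most abundant of the list, had 398.4 FPKM in MD1 and 211.8 FPKM in WT, a log2 ratio of 0.91. Icam1, the adhesion molecule gene that is also a known NF-kappaB target, was 2-fold lower, at 3.14 FPKM in MD1 and 7.54 FPKM in WT. Tslp and Il33 were lower by less, at 1.72 and 0.809 FPKM in MD1, against 4.05 and 1.48 FPKM in WT. The cytokine genes Il1a, Il1b and Tnf themselves were under the FPKM filter. Il1a had 0.541 FPKM in MD1 and 0.0276 FPKM in WT, and Il1b had 0.0712 FPKM in MD1 and was listed at 0 in WT. Tnf went the other way, at 0.101 FPKM in MD1 and 0.368 FPKM in WT.

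**Figure D4:**
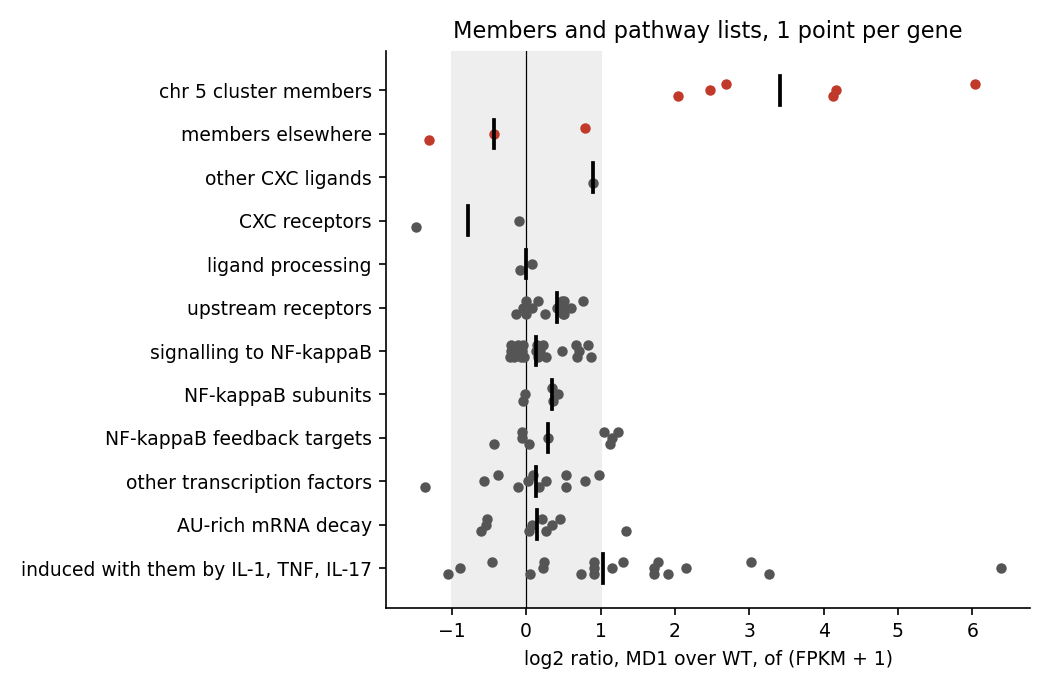
Log2 ratio of (FPKM + 1), MD1 over WT, with 1 point per gene that passed the FPKM filter and a bar at the median, for the members (red) and the 10 pathway lists (grey). Grey shading marks ratios within 2-fold, where all upstream receptor, signalling and subunit genes lie, while the co-induced list reaches 6.38 at Saa3.

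The 5 genes whose log2 ratio lay nearest to the cluster median of 3.41 were Crct1, Klra4, Ccl2, Klra18 and Il6, at distances of 0.017 to 0.38. Crct1 had 45.1 FPKM in MD1 and 3.29 FPKM in WT, Klra4 had 14.9 FPKM in MD1 and 0.432 FPKM in WT, and Klra18 had 28.5 FPKM in MD1 and 1.44 FPKM in WT. With 2 group means per gene, likeness here means a similar ratio and nothing more. Klra4 and Klra18 are members of a multigene family, so their FPKM is uncertain.

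Markers of other cell types were summed in each group. The 16 macrophage and monocyte markers summed to 133.8 FPKM in MD1 and 161.8 FPKM in WT. Lyz2, the most abundant, had 86.8 FPKM in MD1 and 99.4 FPKM in WT. Of the 11 that passed the filter, 8 had a ratio below 0 and 3 above, beside 50.8% of all genes above 0, with a median log2 ratio of -0.25. Emr1, at 0.910 FPKM in WT, passed only through MD1 and so had to be above 0. None of the 11 was 2-fold apart on the log2(FPKM + 1) scale. The lowest ratio of the 11 was -0.84, for C1qb (3.59 FPKM in MD1 and 7.20 FPKM in WT), and the highest 0.42, for Cd14. Under the filter, Itgam had 1.39 FPKM in MD1 and 0.470 FPKM in WT, and Cx3cr1 had 0.0357 and 0.629 FPKM. Outside the list, the myeloid receptor genes Marco and Clec4n had 6.19 and 3.02 FPKM in MD1, against 0.0418 and 0.0911 FPKM in WT. Both were picked from the highest ratios and passed the filter only through MD1. The 8 neutrophil markers in the table summed to 3.52 FPKM in MD1 and 0.428 FPKM in WT. The most abundant was S100a8, 2-fold apart, at 3.47 FPKM in MD1 and 0.315 FPKM in WT, while S100a9, Elane and Ltf were listed at 0 in both groups. S100a8 passed the filter only through MD1, and at its WT level it could not pass without exceeding 2-fold. The 8 endothelial markers summed to 17.6 FPKM in MD1 and 14.6 FPKM in WT, with Flt1 the most abundant, and the 7 epithelial markers to 81.5 FPKM in MD1 and 72.5 FPKM in WT, with Krt19 the most abundant. Of the 12 fibroblast markers 6 had a ratio above 0 and 6 below, beside 50.8% of all genes above 0, with a median log2 ratio of -0.056. Pdgfra had the highest ratio, at 9.25 FPKM in MD1 and 4.79 FPKM in WT, while Col3a1 and Fap were 2-fold lower in MD1, at 78.7 and 0.890 FPKM, against 188.9 and 3.003 FPKM in WT. The part of these cell types in the chemokine values was not tested.

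Allele-specific reads, which exist per library for X-linked genes, were not used to choose the members. The pathway lists, however, were chosen with earlier results of these data known. These reads allow a test at genes of the lists that lie on X, where the paternal share is the percentage of allele-specific reads with JF1 variants. Of 11 such genes, 8 had enough reads, and all 8 rose in MD1 and none fell (edgeR quasi-likelihood test, Benjamini-Hochberg adjusted over 391 X-linked genes). Of all 391 genes 74.4% rose and 0.256% fell, so a rise was common on this chromosome. The libraries held 521768 to 806626 allele-specific reads.

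Irak1, a kinase that relays IL-1 and Toll-like receptor signals, had paternal shares of 44.8% and 41.2% in the MD1 libraries and 0.289% and 0% in the WT libraries (43.0% ± 2.55 in MD1 and 0.145% ± 0.205 in WT, SD, n = 2 each; adjusted p = 1.71e-106, edgeR). Ikbkg, the regulatory subunit of the kinase complex that activates NF-kappaB, had 49.9% and 49.6% in MD1 and 0.191% and 0.114% in WT. The groups did not overlap at either gene. Overlap was not counted over the 391 X-linked genes, of which 74.4% had a called rise. Over both alleles, Irak1 and Ikbkg had 36.4 and 11.3 FPKM in MD1, against 21.98 and 5.89 FPKM in WT.

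Xiap, a ubiquitin ligase gene, had 39.4% and 38.9% in MD1 and 0.128% and 0.407% in WT. Otud5, a deubiquitinase gene, had 45.1% and 39.4% in MD1 and 0.217% and 0% in WT, and Tab3, an adaptor of the TAK kinase, had 23.6% and 22.6% in MD1 and 0% and 0.691% in WT. Nkrf, a repressor that binds NF-kappaB elements, had 35.5% and 36.9% in MD1, against 0 of 136 reads in WT, which allows a share of up to 2.21%. The endosomal RNA receptor genes Tlr13 and Tlr7 had shares of 54.9% to 58.7% and of 24% to 40.5% in the MD1 libraries, against 0 of 116 and 0 of 49 reads in WT, which allow up to 2.59% and 6.12%. Adjusted p in edgeR was at most 2.66e-41 for Ikbkg, Xiap, Otud5 and Tab3, 1.39e-16 for Tlr13, 6.33e-12 for Nkrf and 0.00101 for Tlr7, whose call rests on 62 reads in MD1. The MD1 and WT libraries did not overlap at any of the 8 genes. Overlap was not counted over all 391 X-linked genes, so whether this is particular to the pathway genes was not tested. A called rise, which is a different measure, was found at 74.4% of the 391. Cxcr3, the only CXC receptor gene on X, had no allele-specific read in any library, and Tlr8 and Btk had too few.

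**Figure D5:**
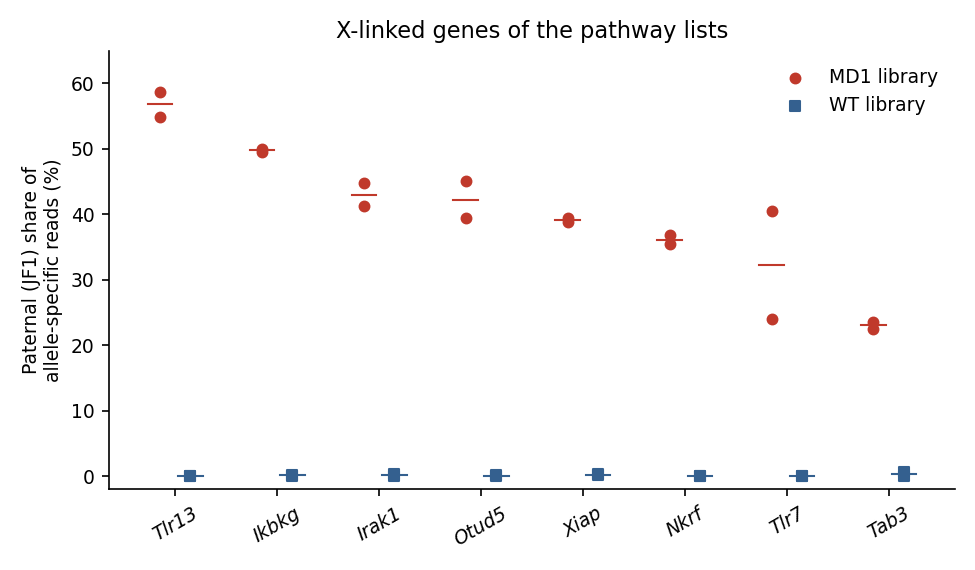
Paternal (JF1) share of allele-specific reads in percent for the 8 X-linked pathway genes with enough reads, with 1 point per library (MD1 circles, WT squares) and a line at each group's mean. MD1 libraries lie at 22.6% to 58.7% and WT libraries at or below 0.691%.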

How the data were processed

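Polyadenylated RNA was sequenced with a stranded kit, per the labels' protocols. The authors deposited 1 mean FPKM per group for all genes, and for X-linked genes the allele-specific reads per library as counts and their JF1 share as a fraction. The submitters' processing notes name mm9, Cufflinks 2.2.1 and Cuffdiff; for aligner, strain variants and gene models, the sources used here give nothing. Coordinates are mm9 unless GRCm38 is named, 1-based.

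The members and lists were chosen with earlier results of these data known. With 1 FPKM mean per group, no test was possible. Log2 ratios use a pseudocount of 1 and, for counts of genes, a mean FPKM of 1 or more and a value above 0 in both groups. A gene was called different at 2-fold on the log2(FPKM + 1) scale. From each list the text names genes past 2-fold, at most the 6 furthest, and the most abundant gene, with some others chosen after their values were seen. A listed 0 can be a failed estimate.

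JF1 reads were share times reads, whole within 0.001 for 100% of values. X-linked genes other than Xist with a share in all 4 libraries and 20 or more reads per library on average were tested with edgeR 4.0.16 (R 4.3.3) on JF1 and B6 counts, with terms for library, allele and allele by genotype, at a false discovery rate of 0.05. The procedure was tested on simulated data. The share's floor at 0 reads is 3 reads of the group's total, which covers counting error only. The labels do not state if each replicate is its own fetus, and the p-values therefore rest on a spread among libraries that could be purely technical. The total allele-specific reads per gene differed between the 2 libraries beyond sampling noise in each group, with a chi-square per degree of freedom of 89.5 in MD1 and 96.9 in WT. This is a spread of total reads and not of the JF1 share that was tested. Alternatives were DESeq2 1.42.0, other scalings, filters and pseudocounts, and leaving out each library.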

Additional observations from a re-analysis of the deposited data

How the results depend on the processing

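The chemokine values carry no replicate check, and the depth behind them is unknown. In 18 log2 ratios of single members recomputed under 2 other scalings, none changed sign; pseudocounts and filters cannot change a sign. With a pseudocount of 0.1 the median of the cluster was 4.95 and its difference from the genes elsewhere 5.38. With median scaling the median elsewhere was -0.44, and with quantile normalization it was -0.39 and the difference 3.802. With a mean FPKM of 5 or more, which removes Pf4, Cxcl2 and Cxcl16, the cluster median was 4.15, that elsewhere -0.87 and the difference 5.02. All 9 members pass the filter, so removing it is no check of their values. With a pseudocount of 0.1, the counts of all genes at least 2-fold higher and lower were 259 and 494, against 158 and 320, and with a mean FPKM of 5 or more they were 94 and 191.

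All 8 X-linked pathway genes rose under each of the 8 alternatives, including DESeq2 and each fit without 1 library, where the lone library is assumed to vary like the other group. With the replicate block the count was also 8. The deviations of same-numbered libraries correlated at 0.058 over genes. The WT shares were near 0 (median 0.0487%), where counting error is large, so this value cannot decide whether the numbers pair the samples. The weakest adjusted p was 0.0322, for Tlr7.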
